A study of Homo sapiens and Mus musculus with 24 samples.

Results

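KLK2, KLK3 and KLK4 are the kallikrein genes through which prostate epithelium secretes serine proteases into seminal fluid. The genes were taken by symbol, with no use of their measured values, and are 3 of the 44564 genes of the LNCaP expression table. All 3 reached the minimum of 1 RPKM (reads per kilobase of transcript, scaled to the library's mapped reads) in at least 2 libraries, which 16042 genes passed. LNCaP is an androgen-responsive human prostate cancer line of luminal epithelial character. RNA was measured at day 7 in 12 LNCaP libraries, which the labels give the genotype WT and which form 6 groups of 2. The cells were grown alone (labelled blank), with fibroblasts labelled CCAFs or with fibroblasts labelled CRPCCAFs. Each setting was treated with DMSO as the vehicle or with enzalutamide, a drug against androgen signalling, at 1 µM. The labels spell out neither fibroblast name and do not say whether the cells touched. Other libraries of the series hold cancer-associated fibroblasts (CAFs) from PtenPC-/-; Trp53PC-/- mice, but the labels of the LNCaP samples do not name the animals behind their cocultures.

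KLK3 encodes prostate-specific antigen, a chymotrypsin-like protease that cleaves the semenogelins of the seminal clot and is the blood marker of prostate disease. KLK2 encodes a trypsin-like protease that can activate the KLK3 zymogen, and KLK4 encodes prostase, another trypsin-like member that can activate the KLK3 zymogen and is also needed for tooth enamel. The genes lie in the kallikrein cluster of chromosome 19, and androgens activate KLK2 and KLK3 through response elements in their promoters and at distant enhancers.

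The promoters are printed because they carry the letters through which the pair of closest relatives can be told from KLK4. Each is the 250 bases before a RefSeq transcription start in build GRCh38.p14, on the gene's own strand. For KLK4, which has 2 start sites in that table, the site farther upstream is shown. Capitals mark 2 motifs that were searched. The first is a relaxed androgen response element on either strand, which starts with the letters GNACA and, after any 4 further bases, ends with the letters GTNCT. The second is a TATA-like sequence, TTATA, on the gene's strand within 40 to 21 bases before the start.
KLK3, chr19:50854665-50854914, plus strand: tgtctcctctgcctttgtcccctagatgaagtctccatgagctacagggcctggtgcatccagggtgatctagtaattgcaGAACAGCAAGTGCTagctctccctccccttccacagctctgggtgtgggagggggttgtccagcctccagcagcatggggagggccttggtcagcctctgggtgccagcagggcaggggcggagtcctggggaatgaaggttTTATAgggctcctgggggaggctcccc
KLK2, chr19:50873189-50873438, plus strand: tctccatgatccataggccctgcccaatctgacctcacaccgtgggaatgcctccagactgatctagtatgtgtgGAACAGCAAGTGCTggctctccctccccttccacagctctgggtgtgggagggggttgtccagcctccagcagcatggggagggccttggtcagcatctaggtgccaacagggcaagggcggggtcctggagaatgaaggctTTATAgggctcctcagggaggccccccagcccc
KLK4, chr19:50911396-50911645, minus strand: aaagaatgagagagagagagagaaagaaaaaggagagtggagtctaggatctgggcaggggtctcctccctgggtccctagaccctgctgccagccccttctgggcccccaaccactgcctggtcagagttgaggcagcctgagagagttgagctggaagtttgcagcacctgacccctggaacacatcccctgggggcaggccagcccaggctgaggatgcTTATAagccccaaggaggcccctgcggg

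KLK3 and KLK2 held the same element, GAACAGCAAGTGCT, at 169 to 156 and 175 to 162 bases before the start. Of 35116 promoter windows, each from 250 bases before to 50 after the start and so longer than those printed, 246 (0.701%) held the relaxed element. It was in neither window of KLK4 and neither window of KLK15, the next relative in the cluster, which says only that these letters are not in these windows. The motif was written with the known KLK3 element in mind. TTATA stood 27 to 23 bases before the start of KLK3, 33 to 29 of KLK2 and 28 to 24 of KLK4, against 558 promoters (1.59%) in all. Over the 250 bases, KLK3 and KLK2 were identical at 205 of 259 aligned positions (79.2%), and KLK3 and the KLK4 window shown at 130 of 280 (46.4%).

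**Figure D1:**
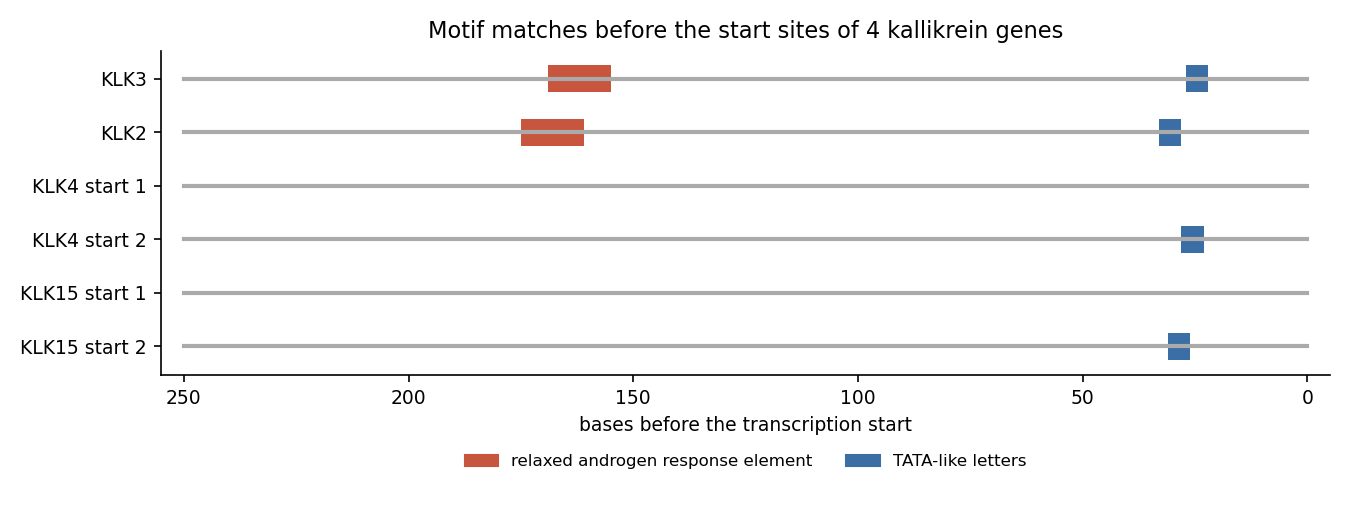
Matches to the relaxed androgen response element (red) and to the TATA-like letters (blue) along the 250 bases before each RefSeq start site, with the start at 0 on the horizontal axis. The element is in the KLK3 and KLK2 windows, at 169 and 175 bases before the start, and in none of the other 4 windows.

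The libraries held 17850431 to 22187880 reads, as recovered from the steps of the RPKM values. All 12 luminal epithelial markers were at 1 RPKM or more in each of the 6 groups, and at most 1 of 6 basal markers was. Of 17 fibroblast markers, 4 to 6 reached 1 RPKM, and their summed level was 52.1 to 53.2 RPKM in LNCaP alone under DMSO and 65.9 to 67.5 under enzalutamide. It was 86.8 to 92.6 and 74.6 to 75.4 RPKM with CCAFs, and 153 to 165 and 211 to 219 RPKM with CRPCCAFs, under DMSO and enzalutamide. FN1, which epithelial cells also express, led that sum at 39.3 to 183 RPKM by group mean. VIM averaged 2.99 RPKM alone and 10.3 with CRPCCAFs under DMSO, and 2.56 and 12.1 under enzalutamide, while COL1A1 averaged 4.62 and 7.74, and 7.81 and 12.4. Under enzalutamide, 5 of the 6 fibroblast markers tested were called higher with CRPCCAFs than alone and 1 with CCAFs than alone. Over all genes, 16.5% and 11.9% were called higher in these comparisons. COL5A1, 1 of the 6, reached 1 RPKM only with CRPCCAFs under enzalutamide (1.87 and 2.01 RPKM), so it was tested only because of that group. In contrast, the group means of COL1A2, DCN, PDGFRA and THY1 stayed at or below 0.153 RPKM. FAP, COL1A2, POSTN or THY1 were at 0 in both libraries of some groups. The part of these markers in the results below was not tested. Values come from bulk RNA, in which fewer cells that express a gene and less RNA per cell cannot be told apart.

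KLK3 was the most abundant member in all 12 libraries. In LNCaP cells alone it stood at 1243 and 1145 RPKM under DMSO and at 55.6 and 61.5 RPKM under enzalutamide. With CCAFs it stood at 1861 and 1849 RPKM under DMSO and at 444 and 454 RPKM under enzalutamide. With CRPCCAFs it stood at 1945 and 2031 RPKM under DMSO and at 178 and 180 RPKM under enzalutamide. The lowest DMSO library of any setting was thus above the highest enzalutamide library of any setting, and within the drug the 3 settings did not overlap. By group mean, KLK3 ranked 42nd of all 44564 genes in cells alone under DMSO and 19th and 20th with CCAFs and CRPCCAFs. Under enzalutamide it ranked 1034th alone, 103rd with CCAFs and 251st with CRPCCAFs.

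Relative to its lowest value, KLK2 covered the widest range of the 3 genes. In cells alone it stood at 54.6 and 48.1 RPKM under DMSO and at 1.35 and 1.20 RPKM under enzalutamide. With CCAFs it stood at 120 and 121 RPKM under DMSO and at 10.9 and 12.1 RPKM under enzalutamide. With CRPCCAFs it stood at 127 and 133 RPKM under DMSO and at 4.50 and 4.20 RPKM under enzalutamide. The groups fell in the same order as for KLK3, without overlap between any 2 of them. The values near 1 RPKM rested on 80 and 79 reads, for which the exact 95% Poisson limits lie on average up to 22.7% of the count away from it, whereas the KLK2 values under DMSO rested on 2987 to 7276 reads.

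KLK4 covered the narrowest range. In cells alone it stood at 54.3 and 55.8 RPKM under DMSO and at 20.1 and 18.8 RPKM under enzalutamide. With CCAFs it stood at 66.1 and 63.7 RPKM under DMSO and at 41.7 and 40.3 RPKM under enzalutamide. With CRPCCAFs it stood at 68.1 and 68.8 RPKM under DMSO and at 30.5 and 28.7 RPKM under enzalutamide. KLK4 thus began at about the level of KLK2 in untreated cells alone but was above it in all 6 enzalutamide libraries. Counts of 550 to 1737 reads stood behind these values.

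**Figure D2:**
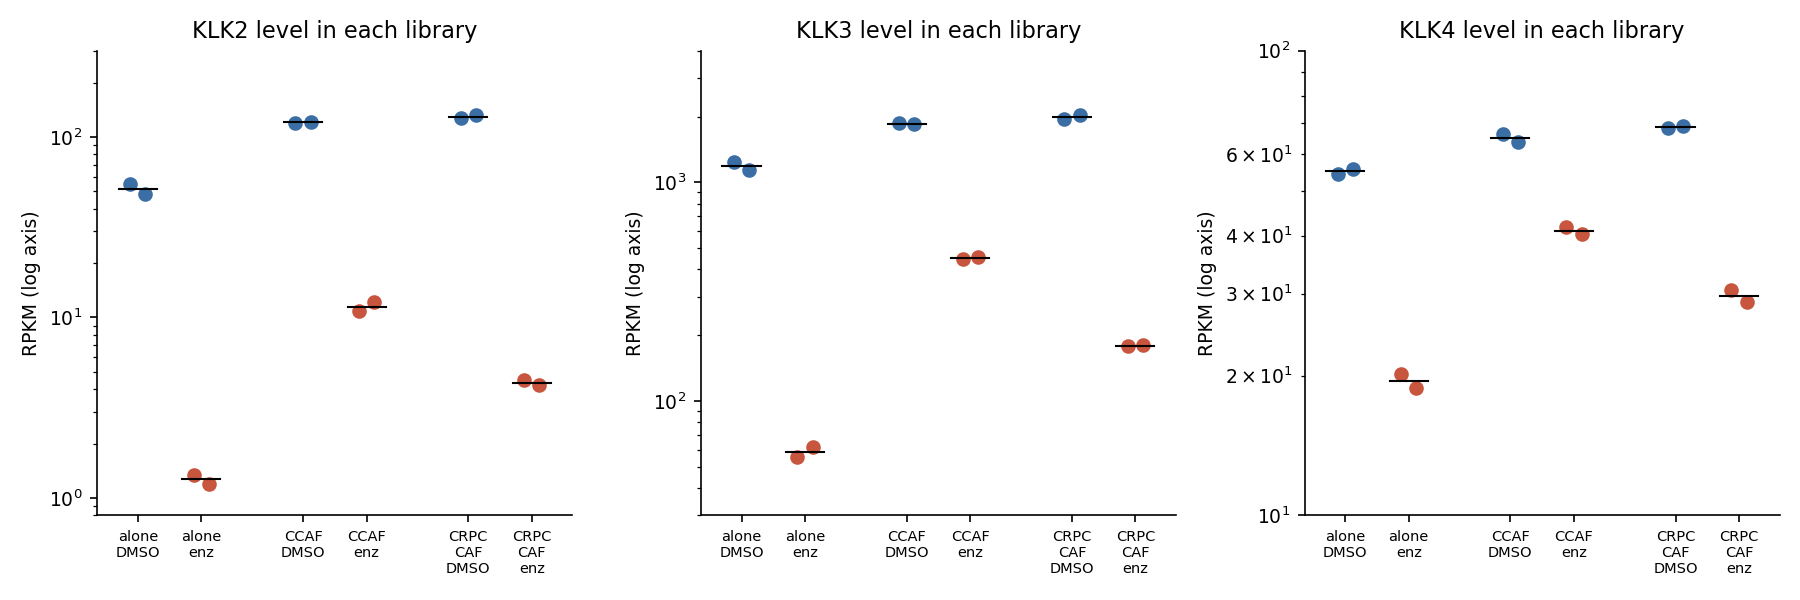
Level of KLK2, KLK3 and KLK4 in each library (points) with the group mean (line), in RPKM on a log axis, for LNCaP cells alone, with CCAFs or with CRPCCAFs, under DMSO (blue) or enzalutamide (red, enz). In each panel the enzalutamide groups lie lowest in cells alone and highest with CCAFs, and the DMSO groups lie above them.

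The order of the 6 groups was the same for all 3 genes: enzalutamide alone, enzalutamide with CRPCCAFs, enzalutamide with CCAFs, DMSO alone, DMSO with CCAFs and DMSO with CRPCCAFs. Neighbours in that order differed by limma's moderated test on log2(RPKM + 1), with Benjamini-Hochberg adjustment over the 16042 genes and a threshold of 0.05, with the exception of the last pair. Between the 2 cocultures under DMSO the log2 difference, CRPCCAF minus CCAF, was 0.10 for KLK2 (95% interval -0.055 to 0.26, adjusted p = 0.376), 0.099 for KLK3 (-0.022 to 0.22, adjusted p = 0.259) and 0.075 for KLK4 (-0.026 to 0.18, adjusted p = 0.308), where 7.03% of all genes were called higher and 6.41% lower. The KLK3 difference passed with a count-based test, limma voom on the recovered reads, at 0.0997 and adjusted p = 0.0450. The intervals leave room for a coculture difference of up to 0.26 in KLK2, 0.22 in KLK3 and 0.18 in KLK4.

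Enzalutamide lowered all 3 genes in every setting, KLK2 most and KLK4 least. In LNCaP cells alone, KLK2 was left at 2.48% of its DMSO mean (1.27 ± 0.102 against 51.3 ± 4.65 RPKM, SD, n = 2; log2 -4.52, SE 0.0702, limma adjusted p = 3.5e-10), KLK3 at 4.90% (log2 -4.33, SE 0.0537, adjusted p = 2.0e-10) and KLK4 at 35.3% (log2 -1.45, SE 0.0450, adjusted p = 9.3e-09). Of all 16042 genes, 25.3% were called lower and 30.1% higher in that comparison, so a call by itself is common. By size on the log2(RPKM + 1) scale, the falls of KLK2 and KLK3 ranked 1st and 2nd of all genes tested and that of KLK4 265th. As a ratio of RPKM means, TRPM8 was left at 1.96% and ADAM7 at 3.43%, so these places depend on the scale. Both are androgen-activated genes treated below.

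With CCAFs present, more of each transcript was left under the drug. KLK3 averaged 449 ± 6.84 RPKM, which is 24.2% of its mean under DMSO with CCAFs (log2 -2.04, limma adjusted p = 7.0e-09), KLK2 was left at 9.52% (log2 -3.29, adjusted p = 2.3e-09) and KLK4 at 63.1% (log2 -0.65, adjusted p = 3.1e-06), with 21.5% of all genes called lower. On the log2(RPKM + 1) scale the fall of KLK2 still ranked 2nd of all genes, whereas that of KLK3 ranked 28th and that of KLK4 923rd. As a ratio of RPKM means, ADAM7 was left at 5.02% with CCAFs. With CRPCCAFs, KLK2 was left at 3.36% (log2 -4.61, adjusted p = 1.7e-10), KLK3 at 9.0% (log2 -3.47, adjusted p = 1.7e-10) and KLK4 at 43.3% (log2 -1.18, adjusted p = 3.2e-08), with 24.7% of all genes called lower. There the falls ranked 1st for KLK2, 5th for KLK3 and 423rd for KLK4 on the log2(RPKM + 1) scale, while ADAM7 was left at 1.51%.

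Whether the response to the drug differed between settings was tested as the difference between the drug effects of 2 settings. With CCAFs the fall was smaller than in cells alone for all 3 genes: by 2.28 on the log2 scale for KLK3 (95% interval 2.11 to 2.45, limma adjusted p = 2.0e-06), by 1.24 for KLK2 (1.01 to 1.46, adjusted p = 8.9e-05) and by 0.80 for KLK4 (0.66 to 0.95, adjusted p = 8.5e-05). The KLK2 difference was larger with a pseudocount of 0.1 (1.84) and with limma voom on the recovered reads (1.93). In all, 4.56% of genes were called in that direction, and KLK3 had the 5th highest difference of the 16042. With CRPCCAFs the fall of KLK3 was smaller than in cells alone by 0.86 (0.69 to 1.03, adjusted p = 0.00020), where 3.68% of all genes were called in that direction. For KLK4 that difference was 0.27 (0.13 to 0.42, adjusted p = 0.0341), and it lost its call without the filter on low values (adjusted p = 0.0597) and when any of 6 single libraries was left out (0.22 to 0.29, adjusted p = 0.066 to 0.115). Those were both DMSO libraries alone, both DMSO libraries with CRPCCAFs, enzalutamide library 2 alone and enzalutamide library 1 with CRPCCAFs.

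For KLK2 the comparison of CRPCCAFs with cells alone did not pass. The difference between its drug effects was -0.087 (-0.31 to 0.14, limma adjusted p = 0.675). Its sign was not the same in all settings, being 0.36 with a pseudocount of 0.1 (adjusted p = 0.0970), 0.43 with limma voom (adjusted p = 0.159) and 0.0037 without DMSO library 2 of the cells alone (adjusted p = 0.991). On the RPKM scale the fall was 40.3-fold alone and 29.8-fold with CRPCCAFs. Set directly against CCAFs, CRPCCAF cocultures had the deeper falls for all 3 genes, by -1.42 for KLK3 (-1.59 to -1.25, adjusted p = 1.0e-05), -1.32 for KLK2 (-1.55 to -1.10, adjusted p = 7.2e-05) and -0.53 for KLK4 (-0.67 to -0.39, adjusted p = 0.0011), where 4.07% of all genes were called in that direction. The 3 differences of drug effects share libraries with one another and are given side by side as separate values.

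**Figure D3:**
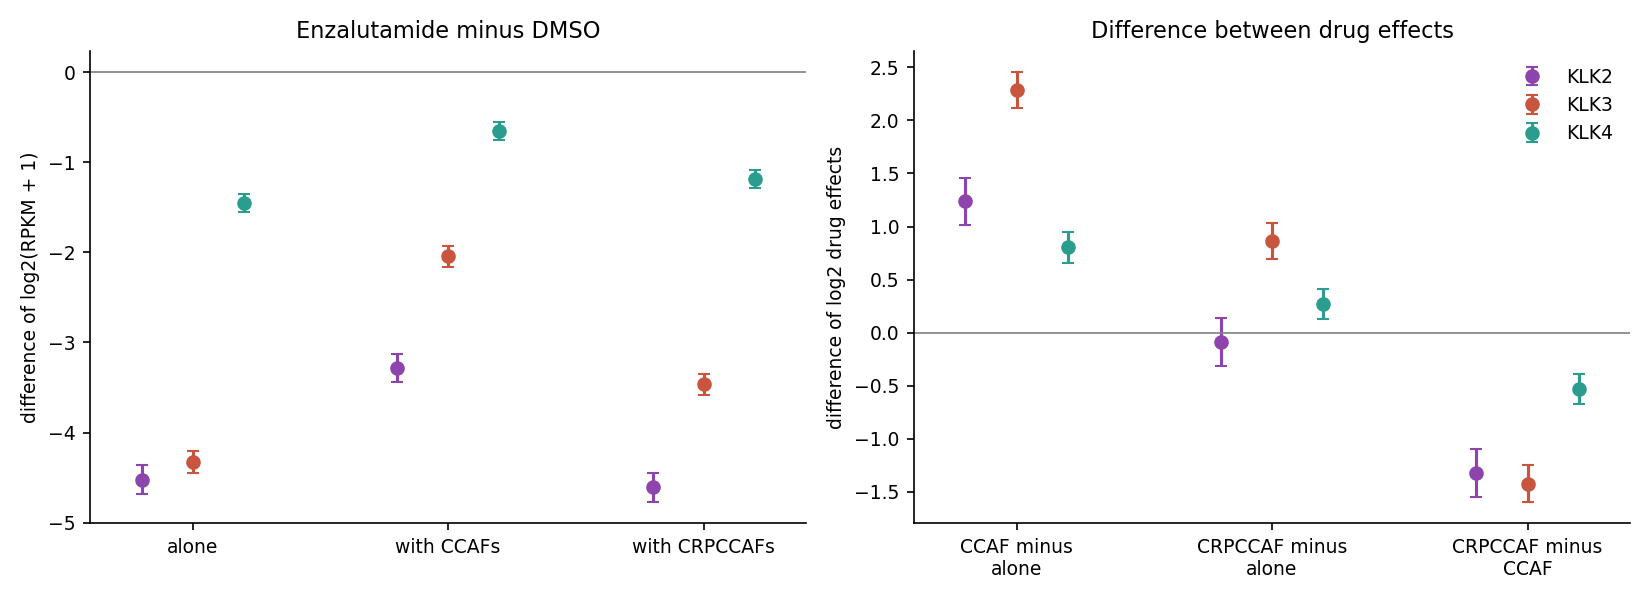
Left, enzalutamide minus DMSO on the log2(RPKM + 1) scale for KLK2, KLK3 and KLK4 in each setting. Right, the difference of those drug effects between settings; points are estimates from 12 libraries and bars are 95% intervals. The falls are smallest with CCAFs, and the KLK2 difference between CRPCCAFs and alone has an interval that holds 0.

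Under enzalutamide, the levels themselves separated the settings. KLK3 was 7.67-fold higher with CCAFs than alone (log2 2.92, limma adjusted p = 3.9e-09), the 2nd highest log2 rise of all genes, and KLK2 was 9.01-fold (log2 2.46, adjusted p = 6.1e-08) and KLK4 2.11-fold higher (log2 1.04, adjusted p = 5.9e-07), with 11.9% of all genes called higher and 7.51% lower. With CRPCCAFs the rise over cells alone was 3.06-fold for KLK3 (log2 1.60, adjusted p = 3.0e-08), 3.41-fold for KLK2 (log2 1.23, adjusted p = 1.1e-06) and 1.52-fold for KLK4 (log2 0.58, adjusted p = 9.2e-06), with 16.5% called higher and 19.6% lower. Between the 2 cocultures under the drug, CRPCCAF libraries held 39.8% of the CCAF level of KLK3, 37.9% of that of KLK2 and 72.3% of that of KLK4, all called lower, as were 18.5% of all genes, with 13.9% called higher. Neither coculture brought a member back to its level in untreated cells alone. With CCAFs and drug, KLK3 reached 37.6%, KLK2 22.4% and KLK4 74.4% of that level, all called lower, against 21.9% of all genes. With CRPCCAFs and drug the shares were 15.0%, 8.47% and 53.8%, again all called lower, against 28.5% of all genes, with 33.7% called higher.

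Coculture also raised the members without the drug, KLK2 more than KLK3 or KLK4. With CCAFs under DMSO, KLK2 was 2.35-fold higher than alone (log2 1.22, SE 0.0702, limma adjusted p = 5.6e-06), KLK3 1.55-fold (log2 0.64, SE 0.0537, adjusted p = 6.9e-05) and KLK4 1.18-fold (log2 0.23, SE 0.0450, adjusted p = 0.0115), where 5.47% of all genes were called higher and 3.99% lower. The KLK4 rise lost its call without DMSO library 1 alone (0.21, adjusted p = 0.0822) and without DMSO library 1 with CCAFs (0.21, adjusted p = 0.0960). With CRPCCAFs under DMSO, KLK2 was 2.52-fold higher (log2 1.32, adjusted p = 1.1e-06), KLK3 1.66-fold (log2 0.74, adjusted p = 1.0e-05) and KLK4 1.24-fold (log2 0.31, adjusted p = 8.1e-04), where 14.3% were called higher. The comparisons of both cocultures with cells alone share the same DMSO libraries.

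The ratio of 2 members within a library does not depend on its depth, and it shows how unequally they moved. The KLK3 to KLK2 ratio of RPKM values was 22.8 and 23.8 in cells alone under DMSO and 41.3 and 51.2 under enzalutamide. With CCAFs it went from 15.5 and 15.3 to 40.9 and 37.5, and with CRPCCAFs from 15.4 and 15.3 to 39.5 and 42.8. Every enzalutamide library had a higher KLK3 to KLK2 ratio than every DMSO library, and under DMSO both cocultures had a lower ratio than cells alone.

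The KLK2 to KLK4 ratio moved most. It was 1.01 and 0.862 in cells alone under DMSO and 0.0668 and 0.0640 under enzalutamide. With CCAFs it went from 1.82 and 1.90 to 0.260 and 0.301, and with CRPCCAFs from 1.86 and 1.93 to 0.148 and 0.146. The KLK3 to KLK4 ratio went from 22.9 and 20.5 to 2.76 and 3.28 alone, from 28.2 and 29.0 to 10.7 and 11.3 with CCAFs and from 28.6 and 29.5 to 5.84 and 6.26 with CRPCCAFs. An exact two-sided permutation test of drug against DMSO within settings gave p = 0.0093 for each of the 3 ratios, the smallest that 2 libraries a group in 3 settings allow, and 0.0093 after Benjamini-Hochberg adjustment over the 3. The mean log2 shift of the ratio was 1.25 for KLK3 to KLK2, -2.17 for KLK3 to KLK4 and -3.42 for KLK2 to KLK4, with the same sign in all 3 settings.

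**Figure D4:**
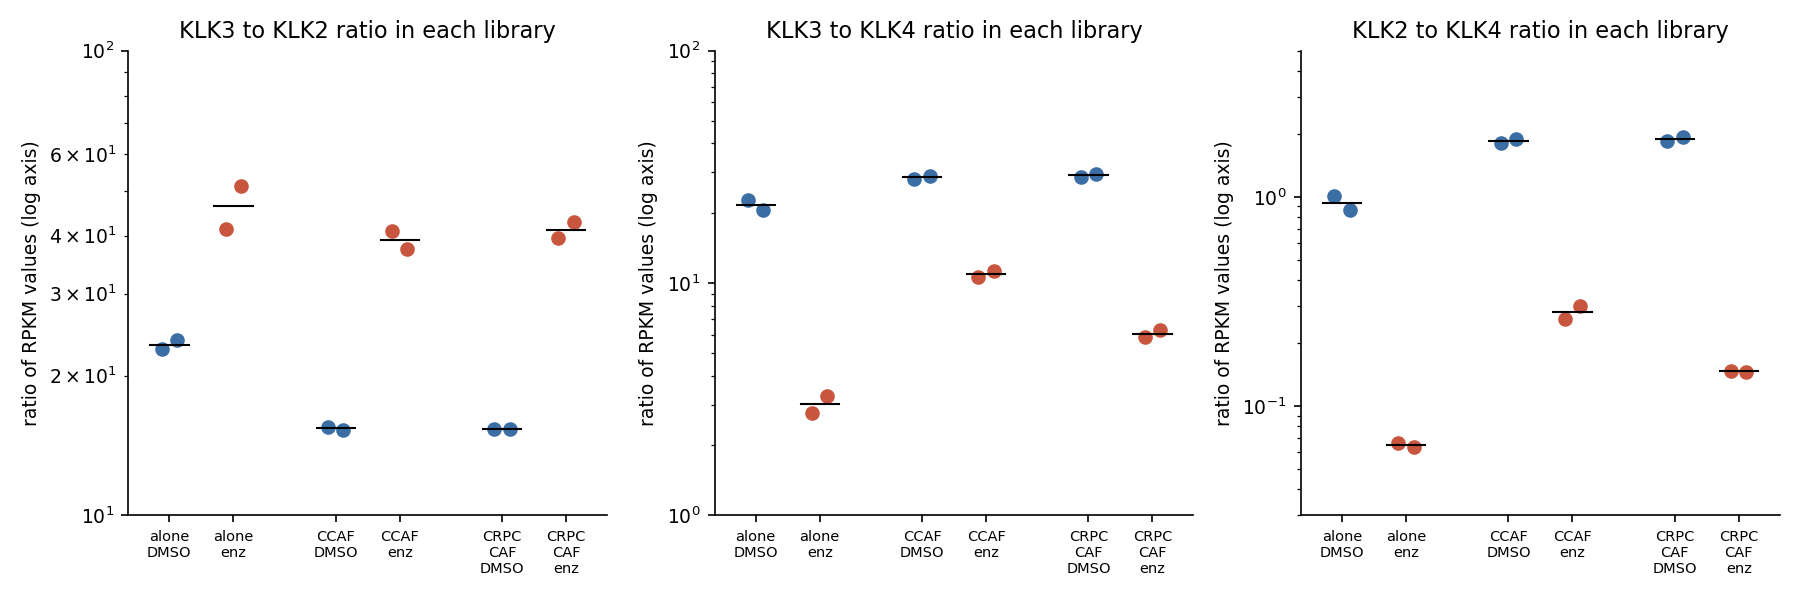
Ratio of RPKM values of 2 members within each library (points) with the group mean (line), on a log axis, for LNCaP cells alone, with CCAFs or with CRPCCAFs, under DMSO (blue) or enzalutamide (red, enz). The KLK3 to KLK2 ratio is higher in all 6 enzalutamide libraries, and both ratios to KLK4 are lower.

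KLK2 and KLK3 are close relatives, so a read from one could be assigned to the other, and the handling of reads with several matches is not described in the labels. Across the GENCODE v29 transcripts, 11 of 6910 distinct stretches of 50 bases in KLK2 (0.159%) also occurred in KLK3, which is 11 of the 5119 of KLK3 (0.215%). KLK4 shared no stretch with either.

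The rest of the family was measured at low levels. Of 16 kallikrein genes in the table, 11 did not pass the filter and stayed at or below 0.570 RPKM in every library, among them KLK9, which was at 0 in all 12. The transcribed pseudogene KLKP1, between KLK2 and KLK4 in the RefSeq order, fell under enzalutamide in each setting, from 6.36 ± 1.14 to 2.74 ± 0.191 RPKM alone (log2 -0.97, limma adjusted p = 0.0016), and no coculture comparison called it. KLK15, a serine protease whose gene lies beside KLK3, stood at 2.07 and 2.11 RPKM in cells alone under DMSO and at 0.228 and 0.206 under enzalutamide. With CCAFs it stood at 4.42 and 4.53 RPKM under DMSO and at 2.19 and 1.47 under enzalutamide, and with CRPCCAFs at 4.22 and 3.91 and at 0.854 and 0.583. It thus had the same order of enzalutamide groups as the 3 members, on 6 to 113 reads per library, and its values alone under the drug rested on 6 reads each. KLK15 fell in each setting (log2 -1.34, -0.96 and -1.56 alone, with CCAFs and with CRPCCAFs; adjusted p = 1.5e-05, 2.0e-04 and 5.8e-06). As a ratio of RPKM means, 10.4%, 41.0% and 17.7% was left, so the fall alone was then the deepest. None of the 3 differences between its drug effects passed.

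Of 12 listed genes beside the cluster that are in the table, 4 passed the filter. C19orf48, which RefSeq lists as C19orf48P on the side of the cluster nearest KLK1, averaged 123 RPKM alone under DMSO and 23.9 under enzalutamide (log2 -2.32, limma adjusted p = 6.5e-10). It averaged 39.3 RPKM under the drug with CCAFs (log2 -1.53 from DMSO with CCAFs) and 19.5 RPKM with CRPCCAFs (log2 -2.38). Its fall was smaller with CCAFs than alone by 0.78 (adjusted p = 7.4e-05), the direction of the 3 kallikreins, and deeper with CRPCCAFs than with CCAFs by -0.85 (adjusted p = 4.9e-05). Unlike them, it was not called higher in either coculture under DMSO. CLEC11A, a secreted growth factor gene on the same side, rose by 0.27 alone and 0.32 with CCAFs under the drug, and differed by -0.011 with CRPCCAFs (adjusted p = 0.895). The small nucleolar RNA genes SNORD88A and SNORD88B fell under the drug in each setting, SNORD88B by 2.86 alone, 2.49 with CCAFs and 2.13 with CRPCCAFs, from 7.83 to 0.232 RPKM alone. No difference between their drug effects passed.

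A pair of transcription factors of prostate epithelium rose where the kallikreins fell. FOXA1, a pioneer factor that opens chromatin, rose 1.49-fold, 1.40-fold and 1.41-fold under the drug alone, with CCAFs and with CRPCCAFs. HOXB13, a homeobox factor, rose by 0.74, 0.65 and 0.71 on the log2 scale in the same settings.

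Other androgen-activated genes also fell under the drug, and in coculture more of them had deeper falls than shallower ones. Of 29 tested, 26 fell and 1 rose alone (median log2 -0.96), 27 fell and 1 rose with CCAFs (-1.18), and 27 fell and 1 rose with CRPCCAFs (-1.32), where 25.3%, 21.5% and 24.7% of all genes were called lower. The rise was that of TNK1, a tyrosine kinase, which is named here after its values were seen. Under DMSO, 16 rose and 0 fell with CCAFs (median 0.39), and 17 rose and 2 fell with CRPCCAFs (0.41), against medians of -0.006 and -0.020 over all genes tested, of which 5.47% and 14.3% were called higher. In the difference of drug effects between CCAFs and alone, 11 had a deeper fall with CCAFs and 2 a shallower one (median -0.20 against 0.010 over all genes, 2.45% called lower). For 9 of the 11 the ratio of RPKM means was also lower with CCAFs, and for the other two, ADAM7 and TRPM8, it was higher. TRPM8 is named here after its values were seen. Between CRPCCAFs and alone, 15 were deeper and 2 shallower (median -0.47 against -0.004 over all genes, 3.33% called lower).

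SLC45A3, a transporter known as prostein, fell by 1.85 alone, 2.38 with CCAFs and 2.63 with CRPCCAFs, so that its drug effects differed from that alone by -0.52 (limma adjusted p = 1.3e-04) and -0.78 (adjusted p = 2.3e-05). MAF, a transcription factor, differed by -1.21 between CCAFs and alone, ACSL3, an acyl-CoA synthetase, by -0.61 and ELL2, an elongation factor, by -0.84. MAF is counted above as a deeper fall in both cocultures, but it did not fall alone (log2 0.034, limma adjusted p = 0.731). Under DMSO it was higher with CCAFs than alone by 1.11, and under the drug it was not called different (-0.10, adjusted p = 0.398). In the other direction, PMEPA1, an inhibitor of TGF-beta signalling, differed by 1.10 between CRPCCAFs and alone. TMPRSS2, a membrane protease whose promoter is androgen-driven, rose from 102 RPKM alone to 161 with CCAFs and 282 with CRPCCAFs under DMSO. Under enzalutamide it averaged 25.3, 31.6 and 73.5 RPKM, so that among the 3 settings it was highest with CRPCCAFs, where the 3 kallikreins were highest with CCAFs.

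**Figure D5:**
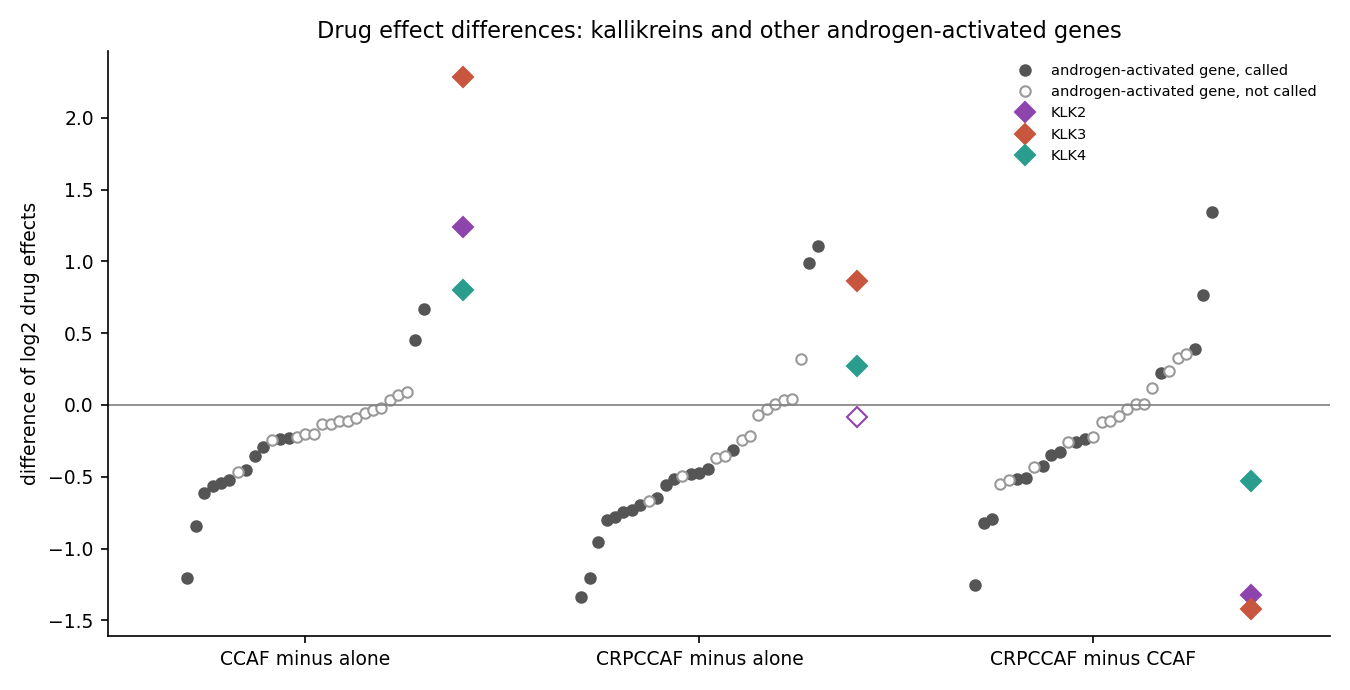
Difference of log2 drug effects between settings for 29 androgen-activated genes (circles, sorted, filled where called at adjusted p under 0.05) and for KLK2, KLK3 and KLK4 (diamonds, open where not called). On this log2(RPKM + 1) scale, between CCAFs and alone, the 3 kallikreins lie at 0.80 to 2.28, above each of the 29 other genes. Between CRPCCAFs and alone PMEPA1 (1.10) and ABCC4 (0.99) lie above KLK3. As a ratio of RPKM means the order differs: TRPM8 was left at 7.81% with CCAFs and 1.96% alone, and KLK4 at 63.1% and 35.3%.

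The 5 genes whose pattern over the 12 libraries was nearest to each member were found by the root mean square difference of log2(RPKM + 1) values, each centred on the gene's own mean. For KLK3 they were KLK2 (0.50), the pseudogene ASS1P13 (0.67), KCNN2 (0.69), ADAM7 (0.70) and APLN (0.71). For KLK2 they were ADAM7 (0.49), KLK3 (0.50), KCNN2 (0.79), RRM2 (0.98) and CENPN (0.99). KLK2 and KLK3 were thus among each other's nearest genes, while KLK4 was the 201st nearest to KLK3 and the 227th to KLK2. Counted from KLK4, KLK3 was the 12654th nearest and KLK2 the 12758th. The values were not scaled, so this distance also reflects the size of the changes, and the 3 genes share one order of groups. For KLK4 the nearest were UAP1 (0.17), TMSB15A (0.17), HPRT1 (0.18), GLYATL1 (0.20) and PRDX4 (0.20). These are smaller distances because KLK4 varied less.

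ADAM7, a metalloprotease-family gene of the male tract, was the gene nearest to KLK2. It averaged 11.4 RPKM alone under DMSO and stood at 0.425 and 0.357 under enzalutamide, at 33.8 and 35.1 and then 1.82 and 1.64 with CCAFs, and at 34.3 and 31.1 and then 0.527 and 0.464 with CRPCCAFs. With CRPCCAFs its fall was deeper than alone, by -1.34 (limma adjusted p = 1.1e-04), with 1.51% of its DMSO mean left against 3.43% alone. With CCAFs the direction depends on the scale: the difference was -0.54 on the log2(RPKM + 1) scale (adjusted p = 0.014), but 5.02% of the DMSO mean was left, more than alone, as for KLK2. RRM2, a subunit of ribonucleotide reductase, and APLN, a secreted peptide hormone, had smaller falls with CCAFs than alone, by 1.76 and 0.92. UAP1, an enzyme of amino sugar synthesis, averaged 126 RPKM alone under DMSO and 39.1 under enzalutamide, 154 and 72.0 with CCAFs, and 139 and 54.0 with CRPCCAFs. UAP1 had smaller falls than alone with CCAFs (by 0.57, adjusted p = 2.1e-04) and with CRPCCAFs (by 0.32, adjusted p = 0.0072), both in the direction of KLK4. ADAM7, RRM2, APLN and UAP1 were picked for their nearness to a member over these same libraries. A direction shared with that member therefore follows in part from the choice and is no separate result.

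Of a list of activators and inhibitors of kallikreins and related serine proteases, 6 of 18 in the table passed the filter, and 2 rose and 3 fell under enzalutamide in each of the 3 settings (medians -0.05, -0.14 and -0.28), where 26.8% to 30.5% of all genes were called higher and 21.5% to 25.3% lower. SPINT1 and SPINT2, membrane-bound inhibitors of trypsin-like proteases, were the rises, at 0.45 and 0.47 alone. SLPI, a secreted protease inhibitor, fell by 0.82 alone and by 1.14 with CCAFs. HPN, the membrane protease hepsin, rose in coculture under DMSO, from 48.3 RPKM alone to 62.9 with CCAFs and 88.0 with CRPCCAFs. Under enzalutamide it fell to 55.3 RPKM with CRPCCAFs (log2 -0.66), a drug effect that differed from that alone by -0.68 (limma adjusted p = 6.0e-04).

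Of 8 tested substrates of these proteases, 3 rose and 2 fell alone, 2 and 4 with CCAFs, and 5 and 2 with CRPCCAFs. Over all genes, 30.1%, 26.8% and 30.5% were called higher and 25.3%, 21.5% and 24.7% lower in these comparisons. The counts in cells alone are near those shares. IGFBP3, a binder of insulin-like growth factors that KLK3 cleaves, moved against the kallikreins under the drug. It rose from 7.45 to 157 RPKM alone, from 5.60 to 38.1 with CCAFs and from 40.5 to 208 with CRPCCAFs. Its rise was smaller with CCAFs than alone by -1.66 (limma adjusted p = 1.8e-05) and smaller with CRPCCAFs than alone by -1.89 (adjusted p = 5.9e-06). FN1, fibronectin, was at 39.3 RPKM alone, 73.7 with CCAFs and 136 with CRPCCAFs under DMSO, and IGFBP5 at 22.2 RPKM in CRPCCAF cocultures under enzalutamide against 0.158 alone.

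Of 13 tested secretory and luminal products of the prostate, 4 rose and 8 fell alone (median -0.41), 4 and 6 with CCAFs (-0.26), and 4 and 8 with CRPCCAFs (-0.37). Over all genes 30.1%, 26.8% and 30.5% were called higher in these comparisons, which is near the share of the list that rose, and 25.3%, 21.5% and 24.7% lower. ACPP, prostatic acid phosphatase, which like KLK3 is secreted into seminal fluid, averaged 7.84 RPKM alone under DMSO and rose under enzalutamide (log2 1.25, limma adjusted p = 5.4e-08). It averaged 10.6 and 32.1 RPKM with CCAFs, and 8.76 and 25.8 RPKM with CRPCCAFs, under DMSO and enzalutamide. FOLH1, prostate-specific membrane antigen, rose by 0.99, 0.90 and 0.72, to 833, 805 and 670 RPKM. AZGP1, a secreted zinc-binding glycoprotein, fell by 1.52 with CRPCCAFs.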

How the data were processed

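RNA of 12 LNCaP libraries, 2 per group, was sequenced on a HiSeq instrument after Trizol extraction and NEBNext Ultra preparation, per the labels' protocols. Tools in the submitters' processing notes are HISAT2, HTSeq and DESeq2, and builds are hg19 and mm10, with no role or version. The separation of human from mouse reads is not described in these notes. The deposited LNCaP values are RPKM per the file headers, with gene symbols and no positions. A deposited table of 12 mouse fibroblast libraries, in TPM per the file headers, served only for the mouse Klk genes.

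Of 44591 names, 27 calendar dates were removed. Each gene's smallest RPKM step gave the reads behind its values for 25005 genes above 0 in at least 6 libraries, 99.9% of the RPKM total. All of those values were whole within 0.05 reads. Intervals on reads cover counting error only.

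Log2(RPKM + 1) of genes at 1 RPKM or more in at least 2 libraries was fitted with limma 3.58.1 in R 4.3.3, with trend, 6 groups and no block. There were 6 residual degrees of freedom, 14 comparisons, two-sided tests and Benjamini-Hochberg adjustment within a comparison. Log2 changes understate the fold of low genes, and a fold or percentage is a ratio of RPKM means. The labels state biological replicates, and p-values measure the spread between these libraries. The fit was tested on simulated data.

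Alternatives to the fit used voom on the recovered reads of 15941 genes, a pseudocount of 0.1, median-of-ratios scaling, a block for the replicate number, no filter, or 1 library fewer. A lone library is then assumed to vary like the other groups. The replicate numbers do not pair the libraries (correlations of deviations across genes -0.062 to 0.084).

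Promoters are from RefSeq (GRCh38.p14) and were matched by symbol for KLK2, KLK3, KLK4 and KLK15. The members and lists were chosen with earlier results of these data known. Named genes are the members, other kallikreins past the filter, FOXA1, up to 4 genes per list and comparison with the smallest adjusted p, and the 5 nearest genes of each member. Some genes that this rule names are not reported here.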

Additional observations from a re-analysis of the deposited data

Results flagged for a closer look

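The response to enzalutamide differed between settings by limma's test of the difference itself for 8 of the 9 comparisons of the 3 genes. Over all genes, 4.56% were called higher and 2.45% lower for CCAFs minus alone. For CRPCCAFs minus alone the shares were 3.68% and 3.33%, and for CRPCCAFs minus CCAFs 2.38% and 4.07%. The last difference follows from the other differences of the same gene, so the 9 are not separate results. Between CCAF coculture and cells alone the difference of log2 drug effects was 1.24 for KLK2, 2.28 for KLK3 and 0.80 for KLK4. Between CRPCCAF coculture and cells alone it was 0.86 for KLK3 and 0.27 for KLK4. Between CRPCCAF and CCAF coculture it was -1.32 for KLK2, -1.42 for KLK3 and -0.53 for KLK4. The KLK3 difference between CCAFs and alone is the 5th highest of all 16042 genes tested. The KLK4 difference between CRPCCAFs and alone lost its call without the filter on low values and without any single library of its 4 groups other than enzalutamide library 1 alone and enzalutamide library 2 with CRPCCAFs.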

How the results depend on the processing

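Other settings are given as log2 differences. The 3 KLK2 values of the CRPCCAF minus alone drug effect that turned sign were 0.36 (pseudocount 0.1), 0.43 (voom) and 0.0037 (without DMSO library 2 alone; -0.18 to 0.0037 over all single libraries left out), and the cause was not tested. The KLK3 difference between cocultures under DMSO passed with voom (0.0997). KLK4 lost its call for the CRPCCAF minus alone drug effect without the filter (0.27) and, over single libraries left out, ranged from 0.22 to 0.32, and for CCAFs against alone under DMSO from 0.21 to 0.26 (lost without DMSO library 1 alone or DMSO library 1 with CCAFs). Of the other results for the 3 genes, none changed its call or direction under the alternatives run. The KLK2 difference between CCAFs and alone (1.24) was 1.84 with the pseudocount of 0.1 and 1.93 with voom. With voom, the genes called were 2371 against 1518 (CCAF against alone, DMSO), and 1766 against 1125, 1724 against 1125 and 1591 against 1034 (drug effects, CCAF minus alone, CRPCCAF minus alone and CRPCCAF minus CCAF). Without single libraries those 4 counts ranged from 640 to 824, 623 to 813, 580 to 1121 and 580 to 1367, that of CRPCCAF against CCAF under DMSO from 821 to 1962 (2156 with all) and that of CCAF against alone under enzalutamide from 1672 to 1951 (3107 with all). With the replicate number as a block, no call of the 3 genes changed (KLK3 CCAF minus alone: 2.28, adjusted p = 1.5e-05; KLK4: 0.80, adjusted p = 1.6e-04). Median-of-ratios scaling moved the median of all genes by at most 0.058. Depth limits KLK2 and KLK15 in cells alone under the drug. With 2 libraries a group, the spread is estimated over all 6 groups.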

Other observations

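The mouse fibroblast table holds 27 Klk genes over 12 libraries. Of these, 13 were at 0 TPM in all 12 libraries and 3 reached 1 TPM in any library. The highest value, 7.58 TPM, belonged to Klk8, whose median was 2.34 TPM, and Klk10 and Klk14 reached 2.41 and 3.32 TPM.

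Of 7 neuroendocrine markers, which the account above does not use, 1 carried nearly all of the summed level, ENO2, a glycolytic enzyme that is not limited to neuroendocrine cells. ENO2 averaged 18.3 RPKM alone, 48.9 with CCAFs and 83.7 with CRPCCAFs under DMSO, and 33.7, 50.1 and 115.4 RPKM under enzalutamide. The sum over the 7 was 17.5 to 20.4 RPKM alone under DMSO, 48.8 to 50.7 with CCAFs and 83.9 to 84.8 with CRPCCAFs, and 34.2 to 35.8, 50.9 to 51.5 and 115.3 to 117.3 RPKM under enzalutamide, while INSM1 was at 0 in both libraries of every group. SYP was the other marker to reach 1 RPKM as a group mean, in LNCaP alone and with CCAFs under enzalutamide.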
